A study of Caenorhabditis elegans with 32 samples.

Results

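The 8 genes described here are targets of germline nuclear RNAi in Caenorhabditis elegans whose 22G RNA was far lower in hrde-1 worms than in wild type (WT). They are trp-4, rimb-1, K07C6.15, Y38F2AR.12, K09D9.11, K09D9.12, C38D9.2 and F15D4.5. They were chosen by name, on the level of their 22G RNA in hrde-1 against WT, from a table of 46932 genes, and the choice set no numeric threshold. The genotype difference of the 8 is therefore given as a description with no test. The oxygen label, the generation and the surrounding genes were not part of the stated choice and were tested. The genes were chosen with earlier results of these data known, so those tests are not fully independent of the choice.

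22G RNAs are small antisense RNAs that RNA-dependent RNA polymerases make on messenger RNA templates, mostly in the germline. HRDE-1 is a germline Argonaute protein that binds 22G RNA in the nucleus, acts with the NRDE factors on nascent transcripts of matching genes and brings about methylation of histone H3 at lysine 9. The pathway is known for passing silencing of a gene from parents to progeny over several generations. 22G RNA counts measure the small RNA that targets a gene, not the transcript of the gene.

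Whole worms were sampled as WT or hrde-1, with a normoxia or a hypoxia label, at the parental generation P0 and in the descendants F1, F2 and F3. Each of these 16 groups had 2 libraries, which makes 32 libraries in all. In the hypoxia treatment, animals at the L4 larval stage spent 16 h at 0.1% oxygen and 20 °C, and ambient oxygen was about 20%. The labels do not give the hrde-1 allele, do not say which generations were exposed themselves, and do not say whether the 2 libraries of a group came from separate cultures, so p-values measure only the spread between these libraries, which may be technical. The genotype cannot be checked from these data, since 22G counts over hrde-1 do not report its transcript.

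The 22G tables held 438436 to 2578063 counts per library. In the P0 WT normoxia libraries 22G RNA made up only 6.151% and 9.27% of the counts of the 4 small RNA classes, against 14.9% to 45.9% in the other libraries. The F3 hrde-1 normoxia libraries had a 22G count in 6356 and 7428 genes, against 8465 to 14298 genes in the others. Levels are CPM, the counts of a gene scaled to a common 22G library total after TMM scaling, and a level per kb is CPM divided by the exonic length in kb.

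The genes lie on 5 chromosomes of the WBcel235 assembly and 4 of them are on chromosome V. trp-4 (I:13899085-13914008, plus strand, 24 exons) encodes a mechanosensitive TRP channel of dopaminergic neurons. rimb-1 (III:1788333-1807147, plus strand, 20 exons) encodes a RIM-binding protein of the presynaptic active zone. Y38F2AR.12 (IV:2399484-2412420, minus strand, 13 exons), C38D9.2 (V:17567150-17571742, plus strand, 8 exons) and F15D4.5 (II:13245376-13247774, plus strand, 7 exons) are annotated as protein-coding, with no function in the annotation used here. The other 3 are annotated as pseudogenes. K07C6.15 (V:3933960-3934950, minus strand, 4 exons) carries the RefSeq name srx-70, a name of the serpentine chemoreceptor class srx. K09D9.11 (V:3997124-4001465, minus strand, 11 exons) and K09D9.12 (V:4002327-4004309, minus strand, 8 exons) are 861 bases apart, and K07C6.15 lies 62173 bases from K09D9.11.

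Together the 8 genes took 0.924% to 1.30% of all 22G counts in the WT normoxia libraries and 0.931% to 1.35% in the WT hypoxia libraries. In hrde-1 they took 0.0512% to 0.0758% under normoxia and 0.0585% to 0.0848% under hypoxia. For each of the 8 genes, every WT library lay above every hrde-1 library, under normoxia and under hypoxia alike. Among all 10121 genes tested, the same held for 5.91% under normoxia and 6.48% under hypoxia. Because the genes were chosen on this difference, nothing is read from that count. Levels are relative to the 22G total of whole worms, and fewer cells of a type and less 22G RNA per cell cannot be told apart in them. The 22G RNA over pathway genes and over marker genes of germ cells and other tissues in the same libraries is given after the neighbouring genes.

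**Figure D1:**
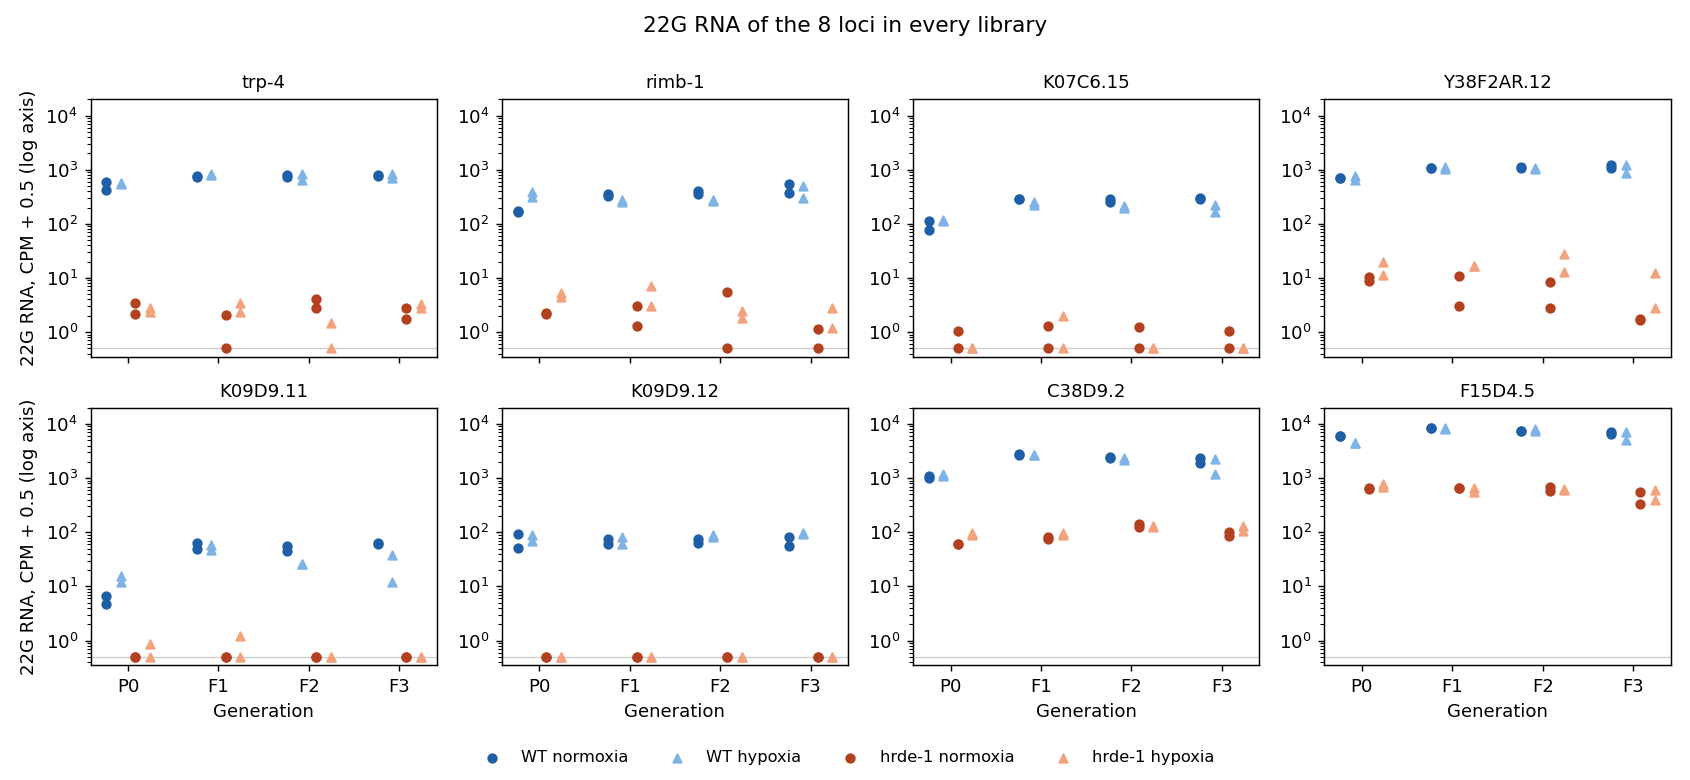
22G RNA level of each gene in every library, as CPM + 0.5 on a log axis, by generation. Blue points are WT and red or orange points hrde-1, with circles for normoxia and triangles for hypoxia, 2 libraries per group. The grey line marks a count of 0, where K09D9.12 sits in all 16 hrde-1 libraries, while F15D4.5 keeps 326 to 785 CPM there.

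The pseudogenes kept almost no 22G RNA in hrde-1. K09D9.12 had 50.0 to 94.6 CPM in the 16 WT libraries and no count in any of the 16 hrde-1 libraries. With the floor set at 3 counts over the 8 libraries of a label, its level was at least 256-fold lower in hrde-1 under normoxia and at least 316-fold lower under hypoxia. K09D9.11 ranged from 4.17 to 63.1 CPM in WT normoxia, with a median of 52.0, and was at 0 in all 8 hrde-1 normoxia libraries, which makes it at least 188-fold lower. Under the hypoxia label hrde-1 held 2 counts of K09D9.11 in all, against 350 in WT, a ratio of 152 with a 95% counting interval of 41.7 to 1257. K07C6.15 had a median of 282 CPM in WT normoxia (74.7 to 300.1) and at most 0.791 CPM in hrde-1, where the 8 libraries held 4 counts in all. Such intervals cover counting error only.

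trp-4 and rimb-1, the genes with neuronal products, kept a few counts in most hrde-1 libraries. trp-4 had 425, 752 and 810 CPM in WT normoxia as its lowest, median and highest value, against 0, 1.95 and 3.63 CPM in hrde-1, a 376-fold difference of the pooled levels. Under hypoxia the difference was 356-fold. rimb-1 had 162, 357 and 538 CPM in WT normoxia against 0, 1.21 and 5.09 CPM in hrde-1, a 228-fold difference, and 94.9-fold under hypoxia. No library of either genotype came near the other one.

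Y38F2AR.12, C38D9.2 and F15D4.5 had the highest levels in WT and also the most 22G RNA left in hrde-1. Y38F2AR.12 had 690, 1072 and 1225 CPM in WT normoxia and 1.14, 5.29 and 10.3 CPM in hrde-1, a 186-fold difference. C38D9.2 had 1023, 2315 and 2799 CPM against 59.6, 83.2 and 142 CPM, a 26.8-fold difference. F15D4.5 had 6098, 7233 and 8595 CPM against 326, 641 and 675 CPM, a 12.9-fold difference. Under hypoxia the folds were 63.4 for Y38F2AR.12, 17.5 for C38D9.2 and 10.04 for F15D4.5. In the fit of all genes under normoxia, the other 5 genes and Y38F2AR.12 ranked 2 to 8 from the largest loss among 9279 genes, while C38D9.2 ranked 137 and F15D4.5 ranked 284.

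Per kb of exon the WT levels were ordered F15D4.5, C38D9.2, Y38F2AR.12, K07C6.15, trp-4, rimb-1, K09D9.12 and K09D9.11. F15D4.5 had 2725 to 5178 CPM per kb over the 16 WT libraries and stood clear of C38D9.2, which had 267 to 730.1 CPM per kb. The next neighbours in the order overlapped, with Y38F2AR.12 at 158 to 297, K07C6.15 at 83.3 to 335, trp-4 at 70.7 to 141, rimb-1 at 37.1 to 123 and K09D9.12 at 31.2 to 59.1 CPM per kb. K09D9.11, at 1.58 to 23.9 CPM per kb, lay below its neighbour K09D9.12 in all WT libraries. In hrde-1, F15D4.5 still had 197 to 473 CPM per kb and C38D9.2 had 15.5 to 37.0 CPM per kb.

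The share of 22G RNA left in hrde-1 varied with the generation for the 3 genes that kept most. F15D4.5 in hrde-1 was at 10.5% of the WT mean at P0 under normoxia and at 16.3% under hypoxia, and at 6.40% to 8.52% in the later generations over both labels. C38D9.2 was at 5.65% and 8.18% at P0 and at 2.85% to 6.92% later. Y38F2AR.12 was at 1.28% and 2.14% at P0 and at 0.105% to 1.90% later, with the lowest value in F3 normoxia. Over the generations and labels trp-4 varied too, from 0.0642% to 0.447% of WT, and rimb-1 from 0.0690% to 1.70%. Those shares rest on 1 to 9 and 1 to 20 hrde-1 counts per group. These shares follow from levels in both genotypes, and in WT the level was lowest at P0 for several of the genes.

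**Figure D2:**
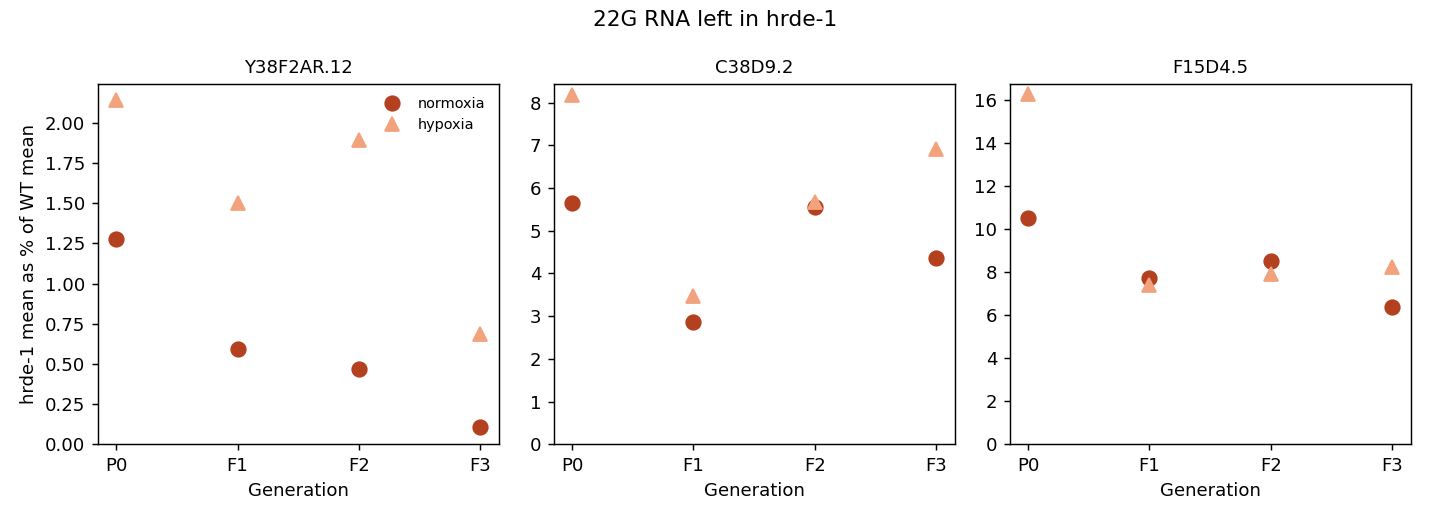
Mean 22G RNA level of the 2 hrde-1 libraries as a percentage of the mean of the 2 WT libraries, for each generation and oxygen label (circles normoxia, triangles hypoxia). Each panel has its own vertical axis starting at 0. F15D4.5 reached 16.3% at P0 hypoxia, and Y38F2AR.12 was at 0.105% in F3 normoxia.

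Whether the oxygen label moved the 22G RNA of these genes was tested first in WT. At P0 none of the 8 genes passed the threshold of an adjusted p of 0.05 (edgeR's quasi-likelihood test over 10121 genes), and 0.711% of all genes did. Of the 8, the p-value was lowest for rimb-1 and next lowest for F15D4.5. rimb-1 had 162 and 171 CPM in the normoxia libraries and 310 and 393 CPM in the hypoxia libraries, which do not overlap. Its log2 fold change was 1.08 ± 0.32 (SE), with an edgeR adjusted p of 0.21. F15D4.5 had 6098 and 6102 CPM under normoxia and 4524 and 4538 CPM under hypoxia, a log2 fold change of -0.43 ± 0.20 with an edgeR adjusted p of 0.70. Both differences are set against the P0 WT normoxia libraries, which stand apart in their 22G share. rimb-1 passed without the F3 libraries (1.05 on the log2 scale, edgeR adjusted p 0.011).

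In the WT descendants the pseudogene K07C6.15 had less 22G RNA under the hypoxia label. Its levels were 281 and 284 CPM in F1 normoxia, 283 and 254 CPM in F2 normoxia and 300.1 and 289 CPM in F3 normoxia. Under the hypoxia label they were 219 and 249 CPM in F1, 217 and 194 CPM in F2 and 162 and 218 CPM in F3. All 6 hypoxia libraries lay below all 6 normoxia libraries. The log2 fold change was -0.44 ± 0.10, with an edgeR adjusted p of 0.021 over 8485 genes.

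K07C6.15 was the only one of the 8 genes to pass in this comparison, where 4.64% of all genes passed and 3.26% were lower under hypoxia. The difference is small against the genotype difference of the same gene. Its call was lost when any 1 of 4 libraries was left out (F1 WT hypoxia 1, F2 WT normoxia 1, F3 WT normoxia 1 or 2), with edgeR adjusted p-values up to 0.063 and a log2 fold change between -0.48 and -0.35 over all 12 libraries left out in turn. It was also lost with libraries scaled by the total of the 4 small RNA classes (edgeR adjusted p 0.22) and as a contrast of the means of all 16 groups (edgeR adjusted p 0.31).

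K09D9.11 and rimb-1 had negative values in the same comparison that did not pass in the reported fit. K09D9.11 had 63.1, 48.6, 55.3, 43.7, 62.5 and 60.0 CPM in the F1 to F3 normoxia libraries and 56.9, 47.2, 24.9, 25.7, 11.8 and 37.98 CPM in the hypoxia libraries. The F1 groups overlap, and the F2 and F3 groups do not. Its log2 fold change was -0.80 ± 0.25 with an edgeR adjusted p of 0.080. It passed with DESeq2 (-0.82, DESeq2 adjusted p 0.035) and without the filter on low counts (-0.81, edgeR adjusted p 0.00099), and did not pass without the F3 libraries (-0.51, edgeR adjusted p 0.12). rimb-1 had -0.36 ± 0.12 with an edgeR adjusted p of 0.11, opposite in sign to its value at P0. Without the F3 libraries rimb-1 passed as well (-0.44 ± 0.09, edgeR adjusted p 0.00755), and so it did without F3 WT hypoxia 2 (-0.48, edgeR adjusted p 0.020). The remaining 5 genes had log2 fold changes of -0.16 to 0.28 with an SE of at most 0.14. In the single generations of WT none of the 8 genes passed at F1, F2 or F3, where 0.168%, 0% and 0.346% of all genes passed. At F3, C38D9.2 passed without WT hypoxia 2 (-0.82, edgeR adjusted p 0.033).

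**Figure D3:**
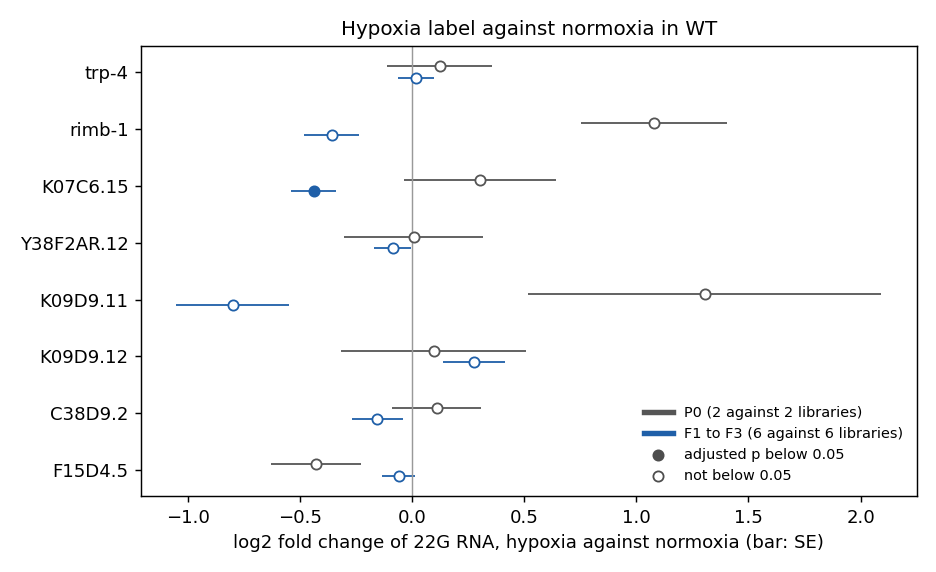
Log2 fold change of 22G RNA under the hypoxia label against normoxia in WT, for P0 (grey, 2 against 2 libraries) and for F1 to F3 together (blue, 6 against 6 libraries), with bars for the SE. Filled points have an edgeR adjusted p below 0.05. Only K07C6.15 in the descendants is filled, at -0.44.

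In hrde-1 the oxygen label was tested on the little 22G RNA that was left. None of the 8 genes passed at P0, F1 or F2, where 0.731%, 0.346% and 0% of all genes passed. K09D9.12 had no count in any hrde-1 library, K09D9.11 had 2 counts in all and K07C6.15 had 6. These genes entered that fit through their WT counts and could hardly pass in any comparison within hrde-1. trp-4 and rimb-1 were also low, with 45 and 57 counts over the 16 hrde-1 libraries, so little can be seen for them. With F1 to F3 pooled, only Y38F2AR.12, C38D9.2 and F15D4.5 had enough counts to be tested. None of these 3 passed, and neither did more than 0.176% of all genes. C38D9.2 had a log2 fold change of 0.18 ± 0.20 and F15D4.5 of 0.01 ± 0.16. At P0 C38D9.2 had 60.2 and 59.6 CPM under normoxia and 98.1 and 88.8 CPM under hypoxia (0.64 ± 0.21, edgeR adjusted p 0.27), a difference that passed without the F3 libraries (0.67 on the log2 scale, edgeR adjusted p 0.016).

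Y38F2AR.12 passed as higher under the hypoxia label in hrde-1 at F3, on few counts. Its F3 levels were 1.25 and 1.14 CPM under normoxia, 2 counts in each library, and 11.95 and 2.33 CPM under hypoxia, 17 and 2 counts. Hypoxia library 2 held the same 2 counts as each normoxia library, so its CPM is higher through its library size alone. Only the other hypoxia library stands well above. Y38F2AR.12 was the 1 of the 8 genes that passed, while 21.5% of all genes passed and 15.2% were higher. Nothing is read from that count. The log2 fold change was 2.66 ± 0.70 with an edgeR adjusted p of 0.010. Without F3 hrde-1 hypoxia 1 it was 0.91 with an edgeR adjusted p of 0.764. F15D4.5 passed too when F3 hrde-1 normoxia 1 was left out (0.63, edgeR adjusted p 0.026). The normoxia side of this comparison is the pair of libraries with the fewest genes detected, and the part of that in the result was not tested.

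The other generations gave values of the same sign for Y38F2AR.12 in hrde-1. At P0 it had 8.10 and 9.76 CPM under normoxia and 19.4 and 10.7 CPM under hypoxia. At F1 it had 10.3 and 2.59 CPM against 16.4 and 15.8 CPM, and at F2 7.995 and 2.29 CPM against 26.7 and 12.5 CPM. Both hypoxia libraries lay above both normoxia libraries in each of the 4 generations, at F3 for hypoxia 2 through library size alone. The values rest on 1 to 18 counts per normoxia library and 2 to 52 counts per hypoxia library. None of these single-generation differences passed before F3. The pooled F1 to F3 value was 1.84 ± 0.78 with an edgeR adjusted p of 0.54. As a contrast of the means of all 16 groups the same 1.84 passed with an edgeR adjusted p of 0.001.

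The difference between the genotypes in the response to the oxygen label was tested directly. For F1 to F3, Y38F2AR.12 had a response 1.92 ± 0.38 higher in hrde-1 than in WT on the log2 scale, with an edgeR adjusted p of 0.0042. It was the 1 of the 8 genes that passed, against 8.58% of all genes and 7.27% with a higher response in hrde-1. Nothing is read from that count. The median over all genes was 0.17. Its WT levels hardly differed between the labels, with 1053 to 1225 CPM under normoxia and 862 to 1220 CPM under hypoxia in F1 to F3. The call was lost without F3 hrde-1 hypoxia 1 (1.33, edgeR adjusted p 0.111), and it held without all F3 libraries (1.46 ± 0.36, edgeR adjusted p 0.016). At F3 alone the difference was 2.79 ± 0.77 (edgeR adjusted p 0.019), again for 1 of the 8 genes, against 12% of all genes and 9.72% with a higher response in hrde-1. At P0 it was 0.77 ± 0.52 and did not pass. C38D9.2 had 0.33 ± 0.17 and F15D4.5 had 0.07 ± 0.16 for F1 to F3, neither of which passed. K09D9.12, K09D9.11 and K07C6.15 had 0, 2 and 6 counts over all hrde-1 libraries and could hardly pass here. Without F3 WT hypoxia 2 the value of C38D9.2 was 0.49 and passed (edgeR adjusted p 0.024).

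Levels in WT also differed between P0 and the later generations. Under normoxia 4 of the 8 genes were higher in F1 to F3 than at P0, none was lower, and 5.67% of all genes passed, with 4.01% higher. Under hypoxia 2 of the 8 were higher, none was lower, and 3.88% of all genes passed, with 2.03% higher. The median log2 fold change of the 8 was 0.92 under normoxia and 0.63 under hypoxia, beside 0.01 and -0.03 over all genes.

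C38D9.2 passed under both labels in WT. It had 1023 and 1096 CPM in P0 normoxia and 1931 to 2799 CPM in the later normoxia libraries, with no overlap, a log2 fold change of 1.18 ± 0.17 (edgeR adjusted p 5.7e-05). Under hypoxia it had 1105 and 1181 CPM at P0 and 1214 to 2688 CPM later, 0.92 ± 0.17 (edgeR adjusted p 0.0014). The lowest of the later libraries, F3 WT hypoxia 1 with 1214 CPM, lay just above P0. F15D4.5 passed only under hypoxia, with 4524 and 4538 CPM at P0 and 5044 to 8358 CPM later (0.68 ± 0.17, edgeR adjusted p 0.019). Whether its change differed between the labels was not tested.

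Under normoxia the other genes that passed were K09D9.11, K07C6.15 and rimb-1. K09D9.11 had 6.23 and 4.17 CPM at P0, on only 4 and 2 counts, and 43.7 to 63.1 CPM later (3.37 ± 0.71, edgeR adjusted p 0.0055). K07C6.15 had 74.7 and 110 CPM at P0 and 254 to 300.1 CPM later (1.61 ± 0.30, edgeR adjusted p 0.0013). rimb-1 had 162 and 171 CPM at P0 and 321 to 538 CPM later (1.22 ± 0.28, edgeR adjusted p 0.0074). All 3 had groups that did not overlap. K09D9.12, 861 bases from K09D9.11, had 93.4 and 50.0 CPM at P0 and 55.6 to 81.0 CPM later (-0.09 ± 0.34), so the P0 range enclosed the later one. trp-4 and Y38F2AR.12 had 0.60 ± 0.20 and 0.67 ± 0.26 and did not pass in the reported fit. Both passed with DESeq2 (DESeq2 adjusted p 0.0051 and 0.0060) and without the F3 libraries (edgeR adjusted p 0.028 and 0.033). Y38F2AR.12 also passed without the filter on low counts (0.78, edgeR adjusted p 0.012). Under hypoxia, K09D9.11, K07C6.15 and rimb-1 did not pass in the reported fit. There rimb-1 had 310 and 393 CPM at P0 and 257 to 491 CPM later, a log2 fold change of -0.21 ± 0.25. K09D9.11 had 1.27 ± 0.55 and K07C6.15 had 0.88 ± 0.27.

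**Figure D4:**
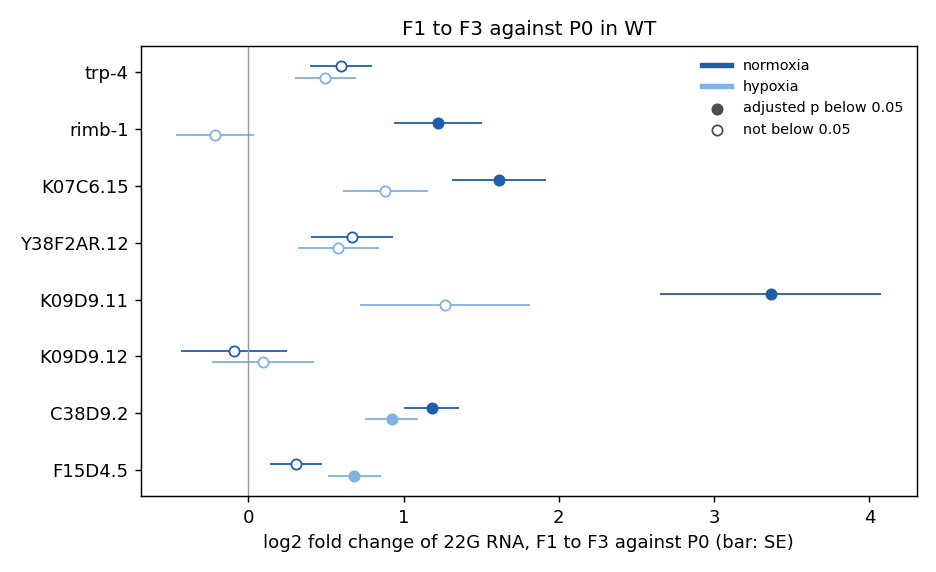
Log2 fold change of 22G RNA in F1 to F3 against P0 in WT, under normoxia (dark blue) and hypoxia (light blue), with bars for the SE. Filled points have an edgeR adjusted p below 0.05. C38D9.2 is filled for both labels, and K09D9.12 lies near 0 for both.

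These generation differences rest on 2 P0 libraries per label, and the generation cannot be told apart from any batch of libraries. Under normoxia they are set against the P0 WT normoxia libraries, which stand apart in their low 22G share. C38D9.2 under normoxia passed whichever single library was left out. The normoxia count of 4 was 6 with DESeq2 and 5 without the filter on low counts, and it fell to 1 without P0 WT normoxia 1 and to 2 without P0 WT normoxia 2. The hypoxia count of 2 fell to 0 without P0 WT hypoxia 1 and to 1 without P0 WT hypoxia 2. Without the F3 libraries the counts were 7 under normoxia and 6 under hypoxia. The share of all genes that passed in these altered fits is not given here, so nothing is read from their counts. The summed 22G RNA over 14 sperm genes was also higher later, with 347 to 442 CPM in the 4 P0 WT libraries and 555 to 736 CPM in the 12 later ones. Under normoxia most of the WT sum came from the sperm gene spe-41, so the sum does not stand for sperm genes in general. Of those 14 genes, 7 could be tested and 1 rose under normoxia and 2 under hypoxia, while 2 of the 14 had no count in any P0 WT library. Over 12 oocyte and embryo genes the ranges overlapped, with 615 to 745 CPM at P0 and 465 to 726 CPM later, and none passed under either label. The part of the sperm genes' 22G RNA in the generation difference was not tested.

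In hrde-1 C38D9.2 was also higher in the later generations under normoxia. It had 60.2 and 59.6 CPM at P0 and 75.1 to 142 CPM later, without overlap (0.71 ± 0.18, edgeR adjusted p 0.011), the 1 of the 8 genes that passed where 10.1% of all genes passed and 1.33% were higher. The call was lost without either of the P0 hrde-1 normoxia libraries. Y38F2AR.12 had -1.25 on the log2 scale, and -0.41 without the F3 libraries. It did not pass in either, but passed as lower without F1 hrde-1 normoxia 1 (-1.71, edgeR adjusted p 0.015) or F2 hrde-1 normoxia 1 (-1.74, edgeR adjusted p 0.042), which made the count 2. It also passed as lower without the filter on low counts (-1.27, edgeR adjusted p 0.026). F15D4.5 did not pass, with 659 and 625 CPM at P0 and 326 to 675 CPM later. Under hypoxia none of the 8 genes passed, beside 4.43% of all genes. K09D9.12, K09D9.11 and K07C6.15, with 0, 2 and 6 counts over all hrde-1 libraries, could hardly pass under either label.

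Over the 16 WT libraries the correlation of log2 CPM between 2 of the 8 genes was highest for K07C6.15 and K09D9.11, at 0.93. K09D9.12 had -0.21 to 0.19 with the other 7. Among those 7 the lowest values were those of rimb-1, with 0.06 for F15D4.5 and 0.44 for C38D9.2. These values describe libraries that share the P0 difference above, and no test was made. By the likeness of log2 CPM over all 32 libraries to the mean profile of the 8 genes, the closest other genes were F40D4.13 (r = 0.993), C08F11.7, Y73B3A.32, F15D4.6, sosi-1 and F55B11.6 (r = 0.989 each). These correlations are dominated by the split between the genotypes that all 32 libraries share. F40D4.13 had a mean of 1381 CPM in WT normoxia and 26.1 CPM in hrde-1, and sosi-1 had 1738 and 79.5 CPM.

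Genes next to the 8 loci were tested for the genotype difference under normoxia, since they were not part of the stated choice. The nearest tested gene on each side gave 13 genes, 592 to 41940 bases away. Of these 8 were lower in hrde-1 and 1 was higher. Over all 9279 genes tested, 28% passed, 16.3% were lower and 11.7% higher, and the median was -0.18. Of the 8 lower genes, C17E7.12, cyp-34A6 and C49G7.12 had no count in any hrde-1 normoxia library and means of 6.90 to 13.02 CPM in WT. These 3 and C38D9.12, with 10.5 CPM in WT and 0.792 CPM in hrde-1, passed the filter on low counts through WT alone. That favours a lower value in hrde-1, so nothing is read from their calls. Y39A3CL.3 passed the filter through hrde-1 alone and was not called. Of the 8 neighbours that reached the filter in both genotypes, 4 were lower and 1 was higher, with a median of -1.5003 on the log2 scale.

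The genes just downstream of F15D4.5 and C38D9.2 on the same strand also had far less 22G RNA in hrde-1. F15D4.6 starts 1411 bases beyond F15D4.5. It had a mean of 1125 CPM (875 to 1422) in WT normoxia and 62.5 CPM (45.1 to 101) in hrde-1, a log2 difference of -4.21 ± 0.17 with an edgeR adjusted p of 9.1e-13. The non-coding gene C38D9.13 starts 1465 bases beyond C38D9.2. It had 229 CPM (101 to 313) in WT and 8.09 CPM (0 to 12.6) in hrde-1, a log2 difference of -4.77 ± 0.36 with an edgeR adjusted p of 7.4e-09. The same quantity was -3.65 for F15D4.5 and -4.52 for C38D9.2.

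Other neighbours differed less or in the other direction. clp-4, a calpain gene 592 bases from the 3′ end of rimb-1 on the opposite strand, had 165 CPM in WT and 57.5 CPM in hrde-1 (-1.63 ± 0.22, edgeR adjusted p 8.4e-06). The pseudogene Y71A12B.3, 4835 bases upstream of trp-4, had 137 and 37.1 CPM (-2.01 ± 0.42, edgeR adjusted p 0.0012). F15D4.4, on the other side of F15D4.5 and on the opposite strand, was higher in hrde-1, with 10.4 CPM in WT and 41.1 CPM in hrde-1 (1.99 ± 0.59, edgeR adjusted p 0.015), a call lost without F3 hrde-1 normoxia 1 and without the P0 libraries (2.20, edgeR adjusted p 0.063). usp-3, Y39A3CL.3, eri-5 and C45G7.13 did not pass, and Y39A3CL.3 passed as higher without the F3 libraries (2.03, edgeR adjusted p 0.0074). Leaving out each of the 16 libraries in turn gave 8 or 9 neighbours that passed, and leaving out all P0 libraries gave 8.

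Within 20000 bases on either side, 21 other genes were tested, of which 7 were lower and 4 higher in hrde-1. Over all 9279 genes tested, 16.3% were lower and 11.7% higher. The 21 include neighbours already counted above, among them C38D9.12, which passed the filter on low counts through WT alone. No other gene was tested within that distance of K07C6.15, K09D9.11 or K09D9.12. Y38F2AR.10 overlaps Y38F2AR.12 by 37 bases on the same strand and held 967 counts in WT and 201 in hrde-1 (-2.39 ± 0.55, edgeR adjusted p 0.0027). How reads in the overlap were assigned, and whether the counting used strand, is not given in the sources used here. The other annotated genes that overlap the 8 held at most 4 counts each in a genotype.

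**Figure D5:**
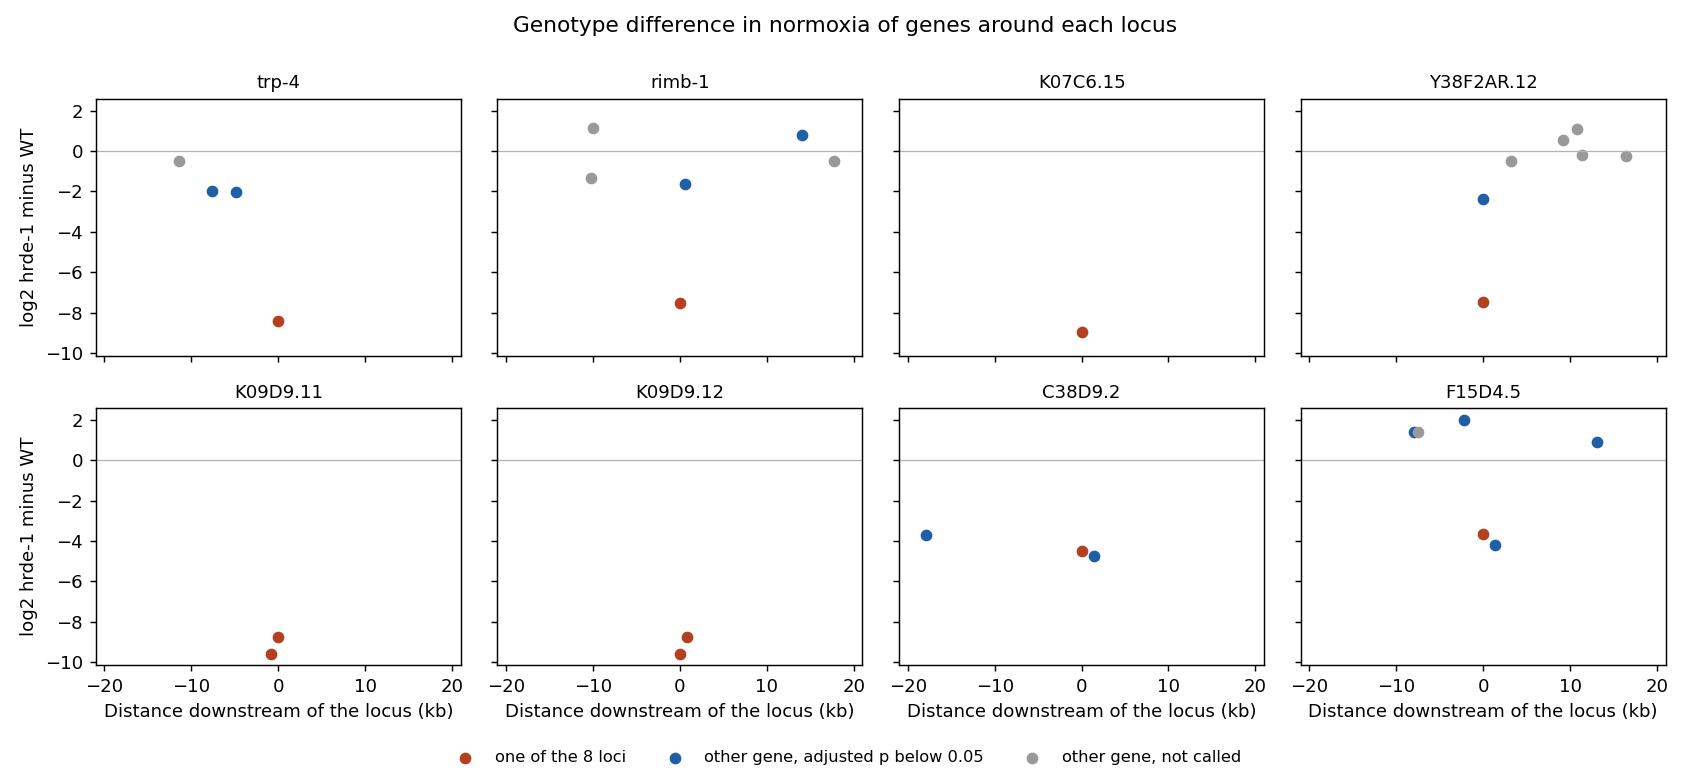
Log2 difference of 22G RNA in hrde-1 against WT under normoxia for genes within 20000 bases of each locus, plotted by distance, with the direction of transcription of the locus to the right. Red points are the 8 loci, at distance 0 in their own panels, blue points other genes with an edgeR adjusted p below 0.05, and grey points genes that did not pass. The 2 points just right of C38D9.2 and F15D4.5 are C38D9.13 and F15D4.6, at -4.77 and -4.21.

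The genes that encode the pathway itself are 22G RNA targets too. Of 41 listed genes of nuclear RNAi, 22G synthesis, chromatin and germ granules, 40 were tested under normoxia, and 10 were higher and 2 lower in hrde-1, with a median of 0.04. Over all genes tested in the same fit, 11.7% were higher and 16.3% lower, with a median of -0.18. Among the higher genes were csr-1, an Argonaute of germline-expressed genes (1.01 on the log2 scale), the nuclear RNAi factors nrde-1 (0.85 ± 0.18, edgeR adjusted p 0.001) and nrde-2 (0.82), and the Argonaute wago-1 (0.70). henn-1, the methyltransferase of small RNA 3′ ends, was lower (-1.40), as was the helicase gene rde-12 (-0.51). hrde-1 itself did not pass (-0.28 ± 0.15, edgeR adjusted p 0.18). The count of 12 was 2 when libraries were scaled by the total of the 4 small RNA classes, which takes in the lower 22G share of single libraries. It was 15 without the F3 libraries and 10 without the P0 libraries.

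bath-45 and K02E2.6, listed beside the 8 as other small RNA targets, kept most of their 22G RNA. bath-45 had a mean of 6432 CPM in WT normoxia and 3893 CPM in hrde-1, a log2 difference of -0.77 ± 0.15. K02E2.6 had 3028 and 1912 CPM, a difference of -0.73 ± 0.15. Both passed, and both differences were far smaller than the -3.65 of F15D4.5, the least reduced of the 8.

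22G RNA over some marker genes of germ cells and muscle also differed between the genotypes. Over all 9279 genes tested under normoxia, 16.3% were lower and 11.7% higher in hrde-1. The 14 sperm genes summed to 347 to 736 CPM in WT and 127 to 197 CPM in hrde-1, and 3 of the 5 that could be tested were lower under normoxia. Most of the WT sum under normoxia was spe-41, which encodes a TRP channel of sperm, with a mean of 383 CPM in WT normoxia and 49.3 CPM in hrde-1. spe-15 and cpb-1 were lower too, while fer-1 had 4.34 and 7.25 CPM and did not pass, and spe-26 had 0.242 and 3.74 CPM and was not tested. The 12 oocyte and embryo genes summed to 465 to 745 CPM in WT and 508 to 1117 CPM in hrde-1, and 4 of 12 were higher, with a median log2 difference of 0.44. None of the tested neuron genes (4 of 8) or intestine genes (5 of 8) passed. The 2 muscle genes that could be tested were lower. lev-11 had 20.0 CPM in WT and 4.76 CPM in hrde-1. unc-54, with 5.86 and 0.135 CPM, reached the filter on low counts through WT alone, so nothing is read from its call. The part of these shifts in the loss over the 8 loci was not tested.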

How the data were processed

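Small RNA of whole worms was counted per gene in 32 libraries. The deposited 22G table holds raw counts per gene, and the authors worked with cutadapt 2.5, FastQC, edgeR and featureCounts, as listed in the submitters' processing notes. The aligner, genome build and strand setting are not given in the sources used here. In the F2 WT normoxia libraries the authors deposited partly fractional values (23.6% and 24.4% of them), which are estimated counts made in a way the sources used here do not give, and these were rounded. Per the labels, 500 ng of RNA was treated with RppH and sequenced to 85 bp.

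The 8 genes were matched to WBcel235 identifiers, 5 by gene name and 3 by transcript name (46919 of 46932 table rows matched). The 5 summary entries were left out; ambiguous reads were 3.09% to 3.60% and reads in no feature 16.4% to 25.5% of each table column. Counts were tested with edgeR 4.0.16 in R 4.3.3 (TMM, filterByExpr at a minimum count of 10, robust glmQLFit and glmQLFTest, Benjamini-Hochberg over all genes tested, threshold 0.05). Single generations, interactions and F1 to F3 against P0 came from 1 fit of 16 group means over 32 libraries. F1 to F3 pooled within a genotype (6 against 6) and the genotype comparison within a label (8 against 8) had the generation as a term. Pooled levels for the genotype folds are summed counts over summed scaled library sizes. The SE of a log2 fold change in the edgeR fits was back-calculated, as its absolute value divided by the square root of the F statistic. Fits were tested on simulated data. Log2 CPM for correlations used a prior count of 2.

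Named genes were the 8, rows that overlap them, the nearest tested gene on each side, listed pathway and marker genes, and the 6 genes of most similar profile. The genes and lists were chosen with earlier results of these data known. No sequence is printed. Alternatives were another normalization (DESeq2 1.42.0 size factors, or the total of 4 small RNA classes), no filter, other samples in the fit, a replicate block, DESeq2 and leaving out each library. Replicate numbers did not pair libraries.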

Additional observations from a re-analysis of the deposited data

Results flagged for a closer look

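The response of Y38F2AR.12 to the oxygen label differed between the genotypes by a test of the interaction. The difference, hrde-1 minus WT, was 1.92 on the log2 scale for F1 to F3, where 8.58% of all genes passed. For F3 alone it was 2.79 ± 0.77 (edgeR adjusted p 0.019), where 12% of all genes passed. Y38F2AR.12 was the 1 of the 8 genes that passed in each, and nothing is read from that count. In hrde-1 the F3 values rest on 4 counts under normoxia and 19 counts under hypoxia, over 2 libraries each. The call for F1 to F3 was lost without F3 hrde-1 hypoxia 1 (1.33, edgeR adjusted p 0.111).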

How the results depend on the processing

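The counts of the 8 genes that passed depended on the processing, and the cause was not tested. The share of all genes that passed in the altered fits is not given here, so these counts show only how calls move. Scaling by the total of the 4 small RNA classes takes in each library's 22G share, and put the median of all genes at 2.70 on the log2 scale for hypoxia at P0 in WT (0.05 in the reported fit) and at 2.03 for F1 to F3 against P0 in WT normoxia (0.01). With it, 8 of the 8 genes passed in both comparisons (0 and 4 in the reported fit), the value of F15D4.5 at P0 in WT turned to 2.26 and that of K09D9.12 against P0 to 1.90. With the same scaling 0 passed for hypoxia in F1 to F3 WT, 0 for F1 to F3 against P0 in WT hypoxia, 0 in hrde-1 normoxia, 1 in hrde-1 hypoxia, and 2 pathway genes.

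Without the low-count filter the counts were 3 for hypoxia in F1 to F3 WT, 2 for F1 to F3 against P0 in hrde-1 normoxia, 1 in hrde-1 hypoxia and 6 pathway genes. DESeq2 called 2 for hypoxia in F1 to F3 WT, 5 for F1 to F3 against P0 in WT hypoxia and 19 pathway genes. A contrast of the 16 group means called 0 for hypoxia in F1 to F3 WT and 1 in F1 to F3 hrde-1. For hypoxia at P0 in WT, 2 passed with only the compared libraries and 1 without F3, and 1 passed in hrde-1 without F3. Leaving out F3 in the other comparisons was added after seeing the data, as was leaving out P0. Without F3, 2 passed for hypoxia in F1 to F3 WT, and 7 in WT normoxia and 6 in WT hypoxia for later generations against P0.

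With 1 library left out in turn, the counts ranged from 0 to 2 for hypoxia in F1 to F3 WT, 0 to 2 for the interaction, 0 to 1 for hypoxia at F3 in WT, 0 to 2 at F3 in hrde-1, 1 to 4 and 0 to 2 for F1 to F3 against P0 in WT normoxia and WT hypoxia, 0 to 2 in hrde-1 normoxia, and 8 to 14 for the pathway genes. Libraries that share a replicate number did not deviate together (correlations of -0.0099 to 0.036 over 8 pairs of groups). A replicate block left the count of genes that passed as reported in all 17 comparisons, with 1.92 for Y38F2AR.12 in the interaction. The low counts of these genes limit what can be seen in hrde-1, where 5 of the 8 had too few for the pooled test.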
